A study of Mus musculus with 3 samples.

Results

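Fibronectin is a large secreted glycoprotein of the extracellular matrix and of blood plasma, encoded in the mouse by Fn1 (ENSMUSG00000026193.15). RBFOX2 clusters were assigned to Fn1 when they lay on its strand with their midpoint inside its GENCODE M21 span, chr1:71585520-71653200 on GRCm38, minus strand, 67681 nt. By this rule 84 of the 87021 deposited clusters (0.0965%) belonged to Fn1. Their counts summed to 2288, or 0.0803% of the 2850863 counts in the list. RBFOX2-bound RNA had been recovered by eiCLIP from primary hepatocytes, the liver's parenchymal cells, of C57BL6/J mice on a control diet. The cells were plated, left overnight and irradiated with UV light at 150 mJ/cm2, and the crosslinked RNA was isolated with an antibody to RBFOX2. In eiCLIP, a variant of iCLIP, reverse transcription stops at the nucleotide joined to the protein, so the start of a cDNA marks a crosslink, and a cluster is a stretch where such starts gather. The 3 libraries, each from 3 livers and 3 cell pellets by the labels, formed a single group, and their crosslinks had been pooled before clusters were called.

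Pooling left no spread between libraries for any value, so that no test between samples was possible. Intervals on counts and densities are exact Poisson 95% intervals, those on ratios of densities are exact binomial ones on the split of the counts, and those on shares are Wilson 95% intervals. All cover counting error only. Clusters of a gene are not replicates of each other. No RNA abundance and no size-matched input was analysed here, so that more RNA and more binding per RNA cannot be told apart.

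Plasma fibronectin is made by hepatocytes and circulates as a dimer, while cellular fibronectin is made by many other cells and laid down in the matrix. The forms come from the same gene by alternative splicing at the EIIIB and EIIIA exons, each of which encodes a whole type III repeat and is skipped in plasma fibronectin, and at the V region, which uses alternative 3′ splice sites. RBFOX proteins bind the RNA motif GCAUG and are known to control exon inclusion from the neighbouring introns. The intron downstream of EIIIB is known for repeats of UGCAUG that act as a splicing enhancer for that exon.

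The coding transcript with the most exons, by which exons and introns are numbered here, had 46 exons and 45 introns, and 7 of the 9 coding transcripts spanned all 3 alternative regions. EIIIB was exon 25, 273 nt or 91 codons long, and was used by 1 of these 7 transcripts. EIIIA was exon 33, 270 nt or 90 codons long, and was used by 4 of 7. The V region was exon 40, chr1:71597281-71597747, annotated in forms of 107, 392 and 467 nt in 2, 2 and 3 of the 7 transcripts, with an alternative part of 360 nt or 120 codons. The sequences of both cassette exons are shown because the introns beside them held the densest intronic clusters, with bases inside a cluster in capitals, 5′ to 3′ on the minus strand. They were read from GENCODE M21 transcripts placed on GRCm38, EIIIB at chr1:71613763-71614035 and EIIIA at chr1:71603660-71603929.
EIIIB: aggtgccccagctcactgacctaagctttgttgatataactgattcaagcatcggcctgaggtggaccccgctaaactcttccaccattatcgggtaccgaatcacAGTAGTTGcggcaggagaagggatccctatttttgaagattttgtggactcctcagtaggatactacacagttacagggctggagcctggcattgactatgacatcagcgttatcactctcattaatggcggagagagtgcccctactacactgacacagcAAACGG
EIIIA: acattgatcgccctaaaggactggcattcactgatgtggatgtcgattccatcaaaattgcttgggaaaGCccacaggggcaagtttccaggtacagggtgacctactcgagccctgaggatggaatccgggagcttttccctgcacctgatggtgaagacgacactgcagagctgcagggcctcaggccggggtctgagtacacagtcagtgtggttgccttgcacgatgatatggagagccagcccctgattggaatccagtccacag

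Most of the sequence inside both exons lay outside clusters. EIIIB held a cluster of 15 counts at chr1:71613922-71613929 and another of 16 counts at chr1:71613761-71613768, which reached across its 3′ end into the intron. EIIIA held a single cluster of 10 counts at chr1:71603859-71603860, and 10 was the minimum of the list. Neither exon held GCATG, which is GCAUG written as DNA.

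RBFOX2 clusters lay along the whole of Fn1, and the highest ones stood in the introns beside EIIIB. Counts per cluster ran from 10 to 205 around a median of 17, and the middle of them lay between 12.75 and 29.25 (quartiles), beside a median of 17 over all clusters of the list. The upper end was fuller than in the list at large. Of the 84 clusters, 17 (20.2%, 13.04 to 30.04%) had at least 39 counts, a level reached by 10.2% of all clusters. At the other end, 9 stood at the minimum of 10. By summed count, which is not corrected for length, Fn1 ranked 122 of the 10738 genes with a cluster and 101 of 9185 protein-coding genes, and by number of clusters it ranked 70.

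**Figure D1:**
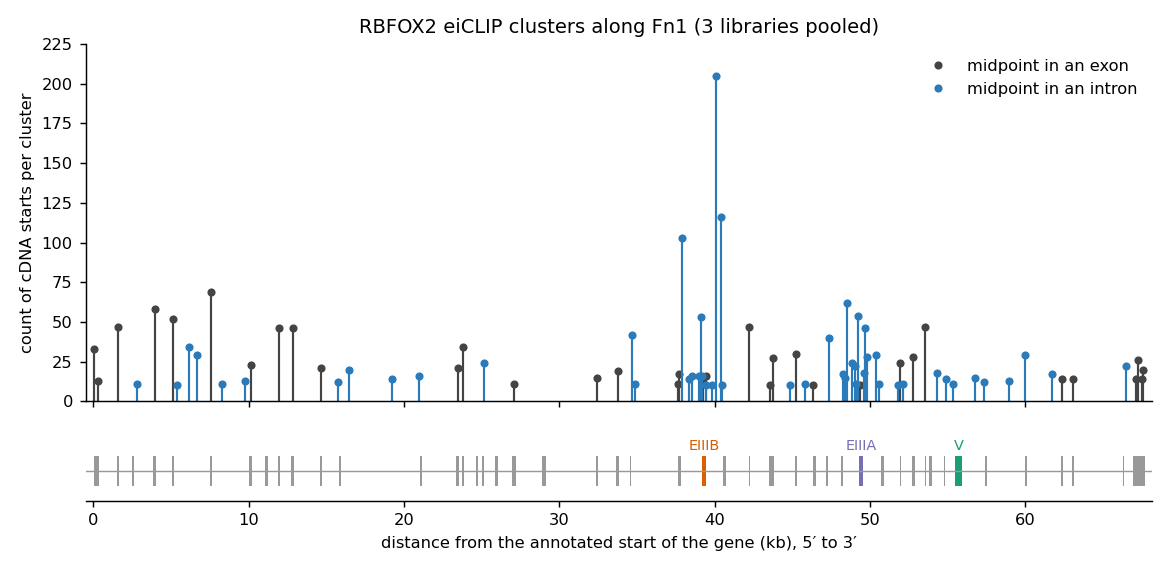
Count of cDNA starts per cluster (vertical axis) against the distance in kb from the annotated start of Fn1 (horizontal axis), with the numbered exons drawn to scale as boxes and EIIIB, EIIIA and V in colour. Each stem is 1 of the 84 clusters of the pooled list, dark for a midpoint in an exon and blue for a midpoint in an intron, and the stems of 103, 205 and 116 counts stand in the introns beside EIIIB.

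The cluster with the highest count, 205, lay at chr1:71613061-71613131 in intron 25, 632 nt downstream of EIIIB and 411 nt upstream of exon 26. The next, with 116 counts at chr1:71612789-71612811, lay in the same intron, 952 nt downstream of EIIIB and 139 nt upstream of exon 26. A cluster of 103 counts at chr1:71615243-71615401 began in the end of exon 24 and ran into intron 24. These clusters stood above 99.2%, 98.4% and 98.1% of all clusters in the list. The other clusters at rank 10 or above lay in introns beside the cassette exons and in coding exons. In introns these were clusters of 62 counts at chr1:71604659-71604679 and 54 counts at chr1:71603961-71603980, both upstream of EIIIA, and of 53 counts at chr1:71614089-71614107, 54 nt upstream of EIIIB. In coding exons they were clusters of 69 counts in exon 6, 58 counts in exon 4 and 52 counts in exon 5. A count of 47 was shared at rank 10 by clusters in exons 2, 27 and 37, of which the last pair lies beyond EIIIB.

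Per kb, exons of Fn1 carried more clusters than its introns. Exons made up 12.5% of the span (8479 nt) and held 34 of the 84 clusters (40.5%, 30.6 to 51.2%), while 59202 nt of intron held 50. This gave 4.01 clusters per kb of exon (2.78 to 5.60) and 0.845 per kb of intron (0.627 to 1.11), a ratio of 4.75 (2.98 to 7.49). On the count scale the exons held 902 counts, or 106.4 counts per kb (99.6 to 113.6), and the introns 1386 counts, or 23.4 per kb (22.2 to 24.7), a ratio of 4.54 (4.17 to 4.94). Higher exon density was common in the list. Among 1998 protein-coding genes with at least 10 clusters and both exons and introns, the median ratio of clusters per kb was 3.31 (quartiles 1.53 and 7.13), and 63.4% of genes had a lower ratio than Fn1. Both of its densities lay in the upper range of those genes, with 91.1% of them lower in exons and 87.7% lower in introns.

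**Figure D2:**
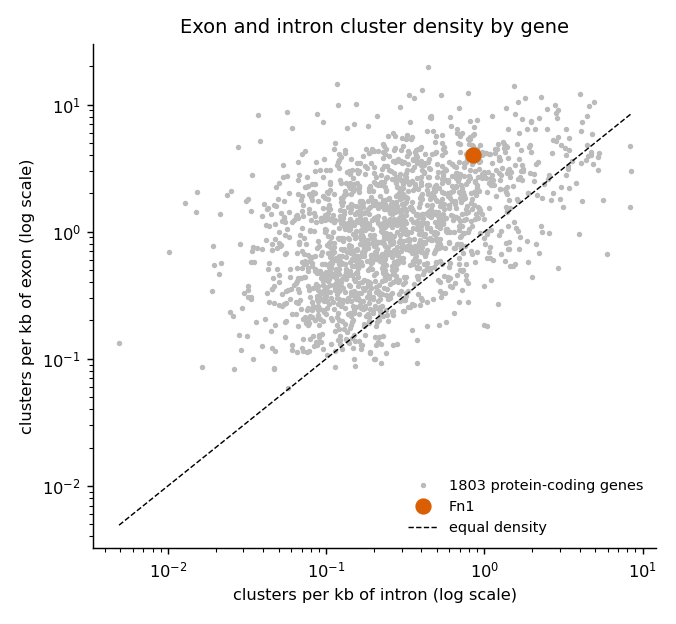
Clusters per kb of exon (vertical axis) against clusters per kb of intron (horizontal axis), both on log scales, for 1803 protein-coding genes with at least 10 clusters in grey and Fn1 in orange. The dashed line marks equal density, Fn1 lies above it at 4.01 and 0.845 clusters per kb, and 195 genes with a density of 0 are not drawn.

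Exonic and intronic clusters of Fn1 also differed in shape. The median width was 39.5 nt in exons (quartiles 12.25 and 72) and 15.5 nt in introns (4.5 and 31), beside 18 nt over all clusters. The median count was 21 in exons and 16 in introns, but the highest count was 69 in exons and 205 in introns. The coding sequence held 29 clusters with 795 counts, the 5′ UTR 1 cluster of 33 counts, and the 3′ UTR 4 clusters of 14 to 26 counts.

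Clusters in the coding sequence were spread over the gene, and 27 of the 46 exons held at least 1. The densest exons by midpoint placement were exons 27 and 37, each 90 nt long with 47 counts, or 522 counts per kb (384 to 694). Their clusters, 104 and 101 nt wide, reached beyond the exon into an intron, so part of these counts may lie outside the exon. In the 5′ part of the gene, exon 6 had 442 counts per kb (344 to 560), exon 4 had 439 (334 to 568), exon 5 had 377 (281 to 494) and exon 2 had 364 (268 to 484). These intervals overlap throughout. The median exon of Fn1 had 104.2 counts per kb. EIIIB, with 113.6 counts per kb (77.2 to 161), was close to that median, and EIIIA, with 37.0 (17.8 to 68.1), was the lowest of the exons that held a cluster. The V exon, the longest internal exon, held none, in a list that shows no cluster under 10 counts.

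The introns beside EIIIB and EIIIA stood apart from the other introns of Fn1. Introns 24 and 25, which flank EIIIB, and introns 32 and 33, which flank EIIIA, made up 7.82% of the length of the numbered introns (4638 nt) and held 65.4% of the intronic counts, 906 in 23 clusters. Their density was 195.3 counts per kb (182.8 to 208.5). The 41 other introns held 480 counts in 27 clusters over 54699 nt, or 8.78 counts per kb (8.01 to 9.60), a ratio of 22.3 (19.9 to 24.9). Introns 39 and 40, beside V, are among the 41, and no ratio was computed with them on the other side. The plan treated EIIIB, EIIIA and V together and did not list this ratio. In clusters per kb the ratio was 10.05 (5.50 to 18.2), and without the clusters of 205 and 116 counts, which held 23.2% of the intronic counts, it was 14.4 in counts per kb (12.7 to 16.3).

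Each of the 4 introns was denser than any other intron of the gene. Intron 25 had 351 counts in 5 clusters over 1112 nt, or 315.6 counts per kb (283.5 to 350.5). Intron 32 had 205 counts in 7 clusters over 1040 nt, or 197.1 per kb (171.1 to 226.0). Intron 24 had 218 counts in 6 clusters over 1324 nt, or 164.7 per kb (143.5 to 188.0), an interval that overlaps that of intron 32. Of the counts of intron 24, 103 came from the cluster that overlapped the end of exon 24. Intron 33 was the lowest of the 4, with 132 counts in 5 clusters over 1162 nt, or 113.6 per kb (95.05 to 134.7). The highest of the others was intron 31, with 49.9 counts per kb (35.7 to 68.0) from a single cluster of 40 counts that overlapped the end of exon 31, followed by intron 45 with 40.3 and intron 39 with 39.9. No other intron held more than 3 clusters, and the longest, intron 12 with 5089 nt, held 3 clusters and 50 counts.

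**Figure D3:**
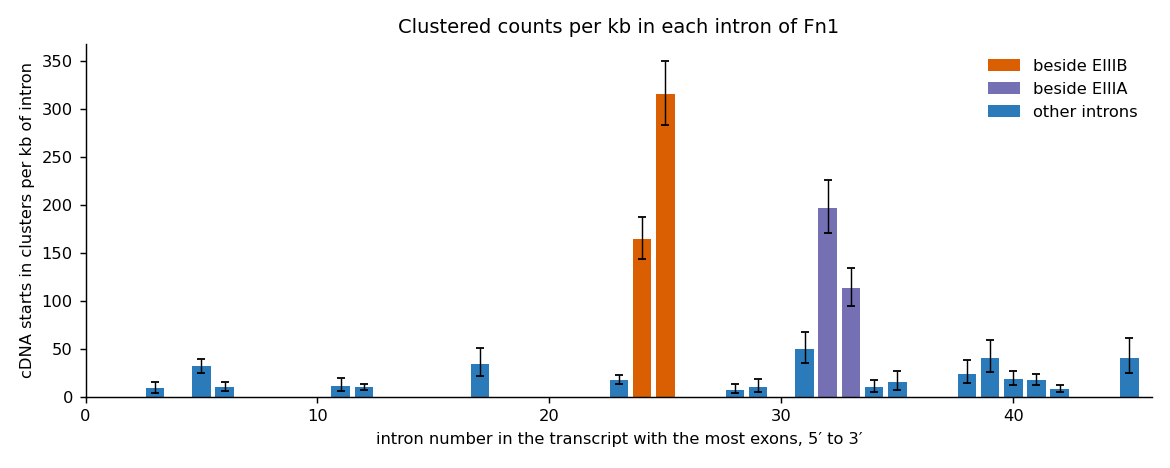
Counts of cDNA starts in clusters per kb of intron (vertical axis) for the 45 numbered introns in order from 5′ to 3′ (horizontal axis), with exact Poisson 95% intervals. The introns beside EIIIB (orange) and EIIIA (purple) have 113.6 to 315.6 counts per kb, the other introns (blue) at most 49.9, and 23 introns with no cluster have no bar.

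The same introns were also dense when set beside introns of other genes. Among introns of 0.5 to 2 times their length in protein-coding genes with at least 10 clusters, 99.7% of 12642 had fewer counts per kb than intron 25, 99.4% of 12453 fewer than intron 32, 99.3% of 13031 fewer than intron 24, and 98.7% of 12798 fewer than intron 33. Any cluster was held by only 21.1 to 23.0% of the introns in these sets, so most of them stood at 0. At least as many clusters as the 7 of intron 32 were held by 76 of the 12453 introns set beside it (0.610%). Taken over all its introns, 22 of 45 (48.9%) held a cluster in Fn1, beside 29.8% of the introns of those genes. In 14 of 45 introns (31.1%) a cluster lay in the first 500 nt, beside 12.0%, and in 14 of 45 (31.1%) in the last 500 nt, beside 10.4%. Those genes differ in how many clusters they hold, and the part of overall cluster number in these shares was not tested.

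Divided along its length, the gene showed a pair of dense stretches and 3 lower ones of similar average density. From the gene start to exon 24 there were 20.7 counts per kb (19.3 to 22.2), from exon 26 to exon 32 there were 24.1 (20.7 to 27.8), and from exon 34 to the gene end 22.0 (19.8 to 24.3), exons and introns together. EIIIB with the intron on each side took up 4.003% of the span and 26.2% of the counts, 600 in 13 clusters, or 221.5 per kb (204.1 to 239.9). EIIIA with its introns took up 3.65% of the span and 15.2% of the counts, 347 in 13 clusters, or 140.4 per kb (126.0 to 155.9). The intervals of the 3 remaining stretches overlap, and those of the EIIIB and EIIIA stretches lie apart from them and from each other.

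Around EIIIB, clusters lay on both sides of the exon. In the 500 nt of intron upstream there were 3 clusters with 85 counts, at 176, 54 and 6 nt from the exon with 16, 53 and 16 counts. The 500 nt downstream held 2 clusters of 10 counts each, 31 and 415 nt from the exon. Most of the counts of intron 25 therefore lay beyond the first 500 nt, in the clusters of 205 and 116 counts. Around EIIIA more of the counts lay within 500 nt of the exon. Upstream there were 4 within 500 nt with 111 counts, the nearest at 32 nt with 54 counts, and downstream 3 with 92 counts, of 18, 46 and 28 counts at 93, 146 and 270 nt. Further out, intron 32 held the cluster of 62 counts, 730 nt upstream of EIIIA and nearer to exon 32, 291 nt downstream of it. Intron 33 held clusters of 29 and 11 counts in the stretch before exon 34.

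The V exon showed neither pattern. Of clusters within 500 nt it had 1, of 11 counts and 124 nt upstream, and the nearest on its downstream side lay 815 nt away with 15 counts. Introns 39 and 40 beside it had 39.9 (25.8 to 59.0) and 18.3 (12.04 to 26.6) counts per kb. Counting the exon and 500 nt of intron on each side, EIIIB had 7 clusters and EIIIA 8, while the 41 other internal exons had a median of 1 and at most 4, held by exon 24. These numbers rested on clusters of low count and on close neighbours. With clusters at or above the median count of 17, EIIIB kept 1 and EIIIA 6, with the top 10% they kept 1 and 2, and with clusters within 200 nt merged both had 2. By summed count in the same windows, EIIIA had 213 and EIIIB 136, beside a median of 29 over the other internal exons, and exon 26 with 331 and exon 24 with 145 stood above EIIIB. The windows of exons 24 and 26 reach into introns 24 and 25, the introns beside EIIIB, where most of their counts lay. The V exon, with 1 cluster, was matched or exceeded by 37 of the 41 other internal exons. Such windows overlap where introns are short, so that a cluster can be counted for more than 1 exon.

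**Figure D4:**
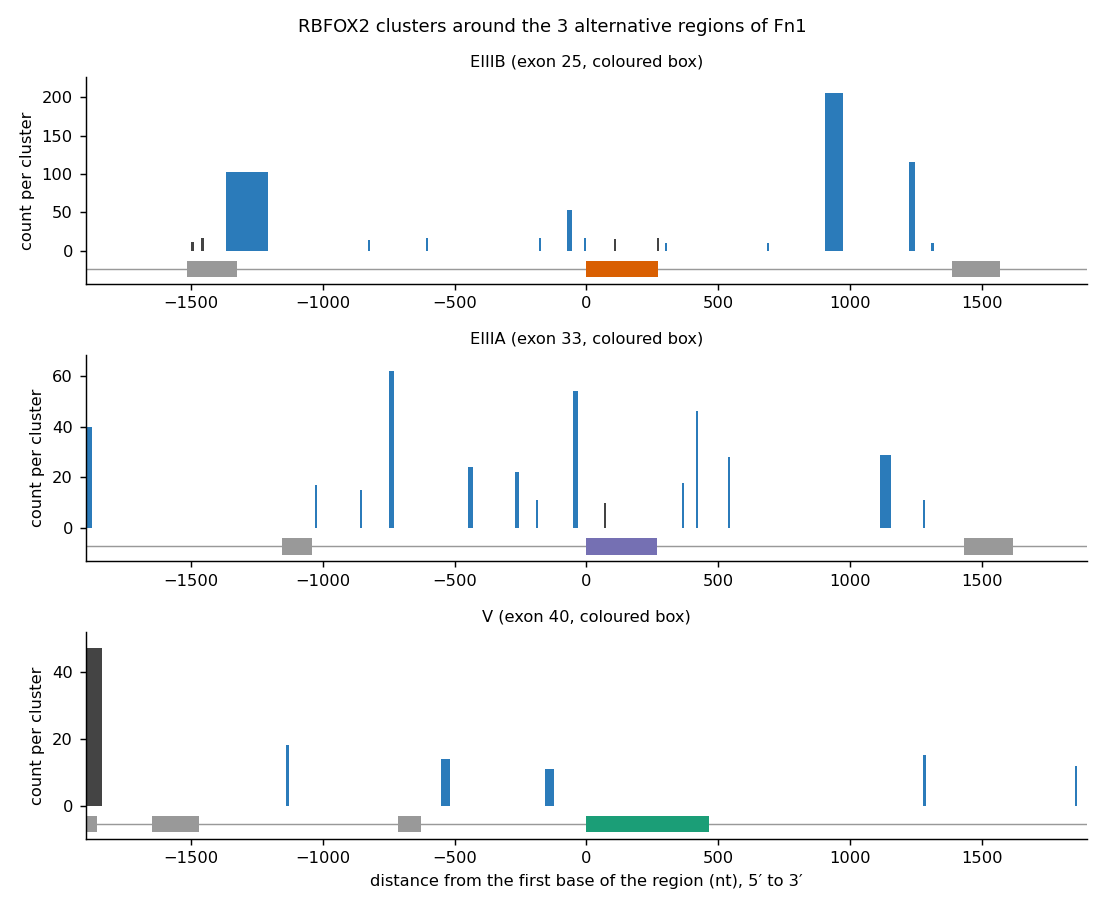
Count per cluster (vertical axis, scaled separately in each panel) against the distance in nt from the first base of EIIIB, EIIIA and V (horizontal axis), with exons as boxes and clusters dark when the midpoint is in an exon and blue when it is in an intron. Bars span the cluster, with narrow clusters widened so that they can be seen, and the tallest bars are 205 counts downstream of EIIIB and 62 counts upstream of EIIIA, while no cluster lies inside V.

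Several clusters crossed an exon boundary, among them clusters with an exonic midpoint such as those of exons 27 and 37. Of the 50 intronic clusters, 4 reached into an exon, with 103, 42, 40 and 29 counts, at the ends of exons 24, 23 and 31 and at the start of exon 42. Without them the ratio of exon to intron density was 5.16, and without all clusters that overlap an exon the ratio of the EIIIB and EIIIA introns to the others was 25.7 (22.7 to 29.1).

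In intron 32, upstream of EIIIA, 5 of the 7 clusters had sequence with 50 nt on each side, because annotated retained-intron transcripts cover them. The 3 with the highest counts are shown with 30 nt on each side and the cluster in capitals, minus strand, GRCm38, at chr1:71604629-71604709, chr1:71604331-71604406 and chr1:71604157-71604231, since they give the bases under RBFOX2 clusters beside a cassette exon.
62 counts: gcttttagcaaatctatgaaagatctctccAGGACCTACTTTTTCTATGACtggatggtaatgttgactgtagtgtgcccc
24 counts: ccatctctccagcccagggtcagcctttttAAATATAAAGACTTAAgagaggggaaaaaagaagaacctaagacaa
22 counts: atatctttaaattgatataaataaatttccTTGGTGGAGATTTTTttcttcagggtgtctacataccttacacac
GCATG was in 0 of these 5 windows, and was also absent from the only window of intron 33 with sequence, that of its cluster of 11 counts.

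Sequence covered 17.3% of the Fn1 span and 5.42% of its intronic bases, so the motif could be looked for at a minority of the clusters. A window of the cluster with 50 nt on each side had sequence for 22 of the 84 clusters, 13 exonic and 9 intronic. GCATG was found in 0 of the 22, with an upper limit of 14.9% for the share, beside 20.1% of the windows of all clusters with sequence and 4.79% of all Fn1 windows of the same length. The clusters of introns 24 and 25 had no such window in the reference used here, so whether the clusters of 205 and 116 counts hold the motif was not tested. The related letters GCACG or GCTTG were in 2 of the 22 windows (9.09%), beside 16.6% of all cluster windows. These were the windows of the cluster of 15 counts at chr1:71604783 in intron 32 and of the cluster of 10 counts inside EIIIA. Only the transcript strand was searched.

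When the windows of exonic clusters were read along the spliced transcript, 42 windows had sequence and 1 held GCATG (2.38%, 0.422 to 12.3%). The 42 include the 9 intronic windows, which were still read along the genome. This was the cluster of 46 counts at chr1:71640281-71640443 in exon 10, with the motif at chr1:71640373-71640377. Exon 10, at chr1:71640292-71640444 on the minus strand of GRCm38, is shown with GCATG in capitals as the only motif inside a cluster of Fn1 in the sequence searched.
Exon 10: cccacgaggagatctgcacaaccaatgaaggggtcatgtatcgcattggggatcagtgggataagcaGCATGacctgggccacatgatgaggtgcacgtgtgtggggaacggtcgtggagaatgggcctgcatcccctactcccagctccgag
The sequence searched, 11685 nt, held GCATG 5 times. Apart from exon 10 it was in exon 12, 112 nt from a cluster of 12 counts, and at 3 places in intron 6, 77, 98 and 213 nt from the nearest cluster.

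Fibronectin acts through integrin receptors and adaptors on the cell side and through matrix and plasma partners outside the cell, and genes of these groups were examined for clusters. A list of 8 splicing factors, which are not partners of the protein, was added. Of the 51 genes in all these lists, 36 had a cluster on their strand (70.6%, 57.0 to 81.3%), beside 41.8% of all protein-coding genes. The share differed by list, with 54.5% of integrins and 57.1% of matrix and plasma partners. It was 100% of adhesion adaptors and 87.5% of splicing factors, so the pooled share does not describe each list. The lists were chosen with earlier results of these data known, a choice that the interval does not cover. Among 11 integrin genes, 6 had a cluster. Itgb1, the beta subunit of the main fibronectin receptor, had 29 clusters with 916 counts, Itgav, a subunit of integrins that bind fibronectin and vitronectin, had 14 with 339, and Itgb5, a partner of Itgav, had 15 with 265. Itga5, which pairs with Itgb1 to bind fibronectin, had 4 clusters with 85 counts, Itgb3 had 2 with 35 and Itga9 1 with 13. Itga4, Itga8, Itgb6, Itgb7 and Itgb8 had none.

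Of 21 matrix and plasma partners, 12 had a cluster. The highest summed counts were those of Sdc4, a heparan sulfate co-receptor for fibronectin, with 675 in 35 clusters, Tgm2, a transglutaminase that crosslinks fibronectin, with 546 in 20, and Bmp1, a protease that processes procollagens, with 286 in 15. Each fibrinogen chain gene, Fga, Fgb and Fgg, had 2 to 7 clusters, and every one of these clusters was exonic. The fibrillar collagen genes Col1a1, Col1a2 and Col3a1 had none. All 11 adhesion adaptors had a cluster, led by Tns1, which encodes tensin, with 5546 counts in 206 clusters, Tln1, which encodes talin, with 954 in 45, and Ptk2, which encodes focal adhesion kinase, with 485 in 26. Of 8 splicing factors known from work on alternative exons such as those of fibronectin, 7 had a cluster, led by Mbnl1, a muscleblind protein, with 2698 counts in 82, Rbfox2 itself with 1609 in 61 and Srsf5, an SR protein, with 815 in 18, while Srsf1 had none. An exonic cluster was present in 4 of the integrin genes, 10 of the matrix and plasma partners, 10 of the adaptors and 5 of the splicing factors, beside 25.7% of all protein-coding genes. These counts are not corrected for gene length.

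The labelled cell type was compared with its markers in the same list. All 6 hepatocyte genes had clusters, with 20 to 8110 counts each and the highest in Alb, which encodes albumin. Of 7 stellate cell and fibroblast genes, which mark the liver cells known to make cellular fibronectin, 1 had a cluster, Reln with 150 counts, and Col1a1, Col1a2, Col3a1, Dcn, Lrat and Des were at 0. Endothelial genes had a cluster in 2 of 5 cases with 12 counts each, Kupffer cell genes in 1 of 4 with 15 counts, and bile duct genes in 0 of 4. Of all protein-coding genes, 41.8% had a cluster. A cluster records RBFOX2 crosslinks and not RNA level, so a marker without a cluster may still be expressed. In such bulk lysates fewer cells of a type, less RNA per cell and less binding cannot be told apart. The part of other liver cells in the Fn1 clusters was not tested.

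The split of clusters between coding sequence, UTRs and introns in Fn1, 29 coding, 5 in UTRs and 50 intronic, was compared with that of 2016 protein-coding genes with at least 10 clusters. By total variation distance, where 0 is an identical split, the nearest were Ap3d1 and Rbp4, both at 0.0119 with 7 coding, 1 in the 3′ UTR and 12 intronic clusters, followed by Sptan1 at 0.0169 with 93 clusters, and Arhgef1 and Cyfip1 at 0.0238 with 15 each. Ap3d1 encodes a subunit of the AP-3 adaptor complex, Rbp4 the plasma carrier of retinol, Sptan1 a spectrin of the membrane skeleton and Cyfip1 a subunit of the WAVE complex. The genes next to Fn1 by summed count split otherwise. Adk, adenosine kinase, had 2302 counts in 102 clusters, of which 96 were intronic, and Smyd3, a methyltransferase, had 2268 counts in 79 clusters, all intronic.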

How the data were processed

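RNA bound to RBFOX2 was measured by eiCLIP in 3 libraries of primary mouse hepatocytes, a single group in the labels. The labels give 3 livers per sample and the study's methods another number of mice per culture, a difference that could not be settled here. According to the methods and the submitters' processing notes, the authors called bases with CASAVA 1.8.4, trimmed adaptors with cutadapt, discarded reads under 18 nt, aligned the rest to GRCm38 with STAR 2.4.2a, kept unique alignments, removed PCR duplicates by random barcode, pooled the libraries and grouped crosslinks into clusters. The authors deposited for each cluster a whole-number count, taken here from its values to be cDNA starts, with a minimum of 10, not normalised and with no input subtracted. The depth of each library is not given in the sources used here, and the clustered counts, 2850863 in all, are not that depth.

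Clusters were placed by their midpoint, on their own strand, on GENCODE M21 (the authors annotated with M20), and counted for every gene whose span held the midpoint. Coordinates are 1-based. Exons of Fn1 were the union over its coding transcripts, and the rest of the span was intron. Exons and introns were numbered on the coding transcript with the most exons. Sequence came from M21 transcripts laid on the genome exon by exon, with 0 conflicting bases and 0 length mismatches on chromosome 1. A motif window was read only where exons of annotated transcripts covered it whole.

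The genes and lists were chosen with earlier results of these data known. Named were Fn1, the listed partners (values for the 3 with the highest summed counts), the 5 genes with the most similar split of clusters, the neighbours in rank, and of Fn1 clusters the 10 highest, those holding GCATG and the nearest to each alternative region. Other clusters, genes, exons and introns named for their values were chosen after those were seen. Scripts ran under Python 3.11.15 (pandas 2.3.3, numpy 2.4.6, matplotlib 3.10.9 and scipy 1.17.1). Placement in genes and exons was checked on simulated positions. For densities, only the formula of the ratio was checked, on counts drawn from a set ratio. Alternatives changed the count filter, merging, placement, exon set, flank, motif and window.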

Additional observations from a re-analysis of the deposited data

How the results depend on the processing

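Of the 52 alternative settings that could be computed, 32 were labelled as leaving the value much the same and 20 as moving it. These labels do not follow the counting intervals. With clusters at or above the median count the summed count was 1787, outside the interval of 2288 (2195.2 to 2383.7), yet labelled the same. Keeping only clusters at or above the median count left 44 clusters, 1 at EIIIB, 0 at V and a ratio of 33.3 between the introns beside EIIIB and EIIIA and the other introns, beside 22.3 with all clusters. Keeping only the top 10% left 17 clusters with 1133 counts, 1 at EIIIB, 2 at EIIIA, 0 at V and a ratio of 91.9. Merging clusters within 200 nt gave 2 at EIIIB, 2 at EIIIA and a ratio of 16.6, and placing clusters by their 5′ end gave a ratio of 19.3. With 1000 nt of intron, EIIIB had 11 clusters and V 3. The letters CATGC, the reverse complement of GCATG, were in 18.2% of only 22 Fn1 windows, beside 13.2% of all cluster windows. No interval was computed for this share, and the difference was not tested. The share with GCATG was below that of all cluster windows. Chosen after seeing the data, the ratio in clusters per kb was 10.05, without the clusters of 205 and 116 counts 14.4, and without clusters that overlap an exon 25.7. The higher counts per kb in the introns beside EIIIB and EIIIA thus held in every setting run. The ratio of exon to intron density ranged from 4.54 to 6.38. No paired analysis was possible because the labels form a single group and the libraries are pooled in 1 list, and for the same reason no library could be left out. Counting intervals take counts as independent and do not cover differences between libraries or animals. RNA abundance, input and the sequence of most introns of Fn1 were not analysed here.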

Other observations

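On the strand opposite Fn1, which none of the comparisons used, the list held 1 cluster inside the Fn1 span. It had 14 counts at chr1:71635250-71635257 on the plus strand, 8 nt wide, across from intron 12. The 84 clusters on the strand of Fn1 had a median of 17 counts, and no cluster of the list had fewer than 10.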
